A study of Homo sapiens with 6 samples.

Results

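Glycolysis and the genes that respond to low oxygen were examined in PC-3 cells, an established human prostate cancer line that grows without androgen. The set held 33 genes of the 19491 listed in the deposited tables and was defined by gene names. It comprised 12 genes of glucose uptake and the upper steps of glycolysis, 6 genes of the lower steps, 5 genes of pyruvate and lactate handling and 10 hypoxia-regulated genes outside glycolysis. All 33 genes passed the filter of a mean of 5 reads in either group.

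Untreated cells (the control, labelled WT for untreated and not for a genotype) were compared with cells given 1 mM GPNA (L-γ-glutamyl-p-nitroanilide) or 10 mM BenSer (O-benzylserine). Both compounds are inhibitors of ASCT2, the glutamine transporter encoded by SLC1A5, and both were applied for 48 h. The paper that reported these libraries proposes that BenSer also acts outside ASCT2, citing its inhibition of the transporter LAT1 in oocytes. A difference with BenSer can therefore not be assigned to ASCT2 alone. Every group was the same line in serum-supplemented RPMI 1640 with 1 mM sodium pyruvate, so a product of glycolysis was supplied in the medium of all groups. No tumour, normal prostate or low-oxygen culture was part of these libraries. Levels are given in CPM (counts scaled to the same total of reads in each library). Each group has 2 labelled libraries, called columns 1 and 2, with totals between 23077986 and 32178154 reads, of which 51.6% to 52.7% lay on the listed genes.

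Columns of the same group agreed almost to within the noise of read sampling, with a ratio of chi-square to degrees of freedom of 1.04 to 1.06, and of 5.33 to 20.6 between groups. Each group was accordingly treated as a single sample, so the differences described here have no replicate check and no p-value. Among the 33 genes, 2 control, 5 GPNA and 4 BenSer pairs of columns lay outside the exact binomial range of read sampling. These were PFKP and ANKRD37 in the control, and PFKFB4, ENO1, PKM, ADM and KDM3A with GPNA. With BenSer they were GAPDH, PGAM1, BNIP3L and NDRG1. The intervals given below cover counting error and not this spread between columns. Of the epithelial markers, KRT8 was at 289 CPM, KRT18 at 108 CPM, EPCAM at 97.8 CPM and CDH1 at 87.3 CPM in the control. Prostate luminal markers were lower, with TMPRSS2 at 16.5 CPM and FOLH1 at 0.842 CPM, and the fibroblast gene COL1A1 was at 5.57 CPM. Some markers also differed between groups, by 0.49 (CDH1) and 0.52 (TMPRSS2) on the log2 scale with BenSer, and by -0.48 with GPNA and -0.27 with BenSer for COL1A1, and their part in the results was not tested. KLK2, KLK3 and the leukocyte and endothelial markers were not analysed here.

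Glycolysis splits glucose into pyruvate. Glucose enters through transporters such as GLUT1, is committed to the pathway by hexokinases and phosphofructokinases, and is then converted to pyruvate in steps that yield ATP. Cancer cells commonly reduce much of this pyruvate to lactate by lactate dehydrogenase and export it. When oxygen is low, the hypoxia-inducible factors HIF-1 and HIF-2 escape hydroxylation and degradation, bind the core letters ACGTG or GCGTG in DNA and raise transcription of many glycolysis genes, together with genes of blood vessel growth, mitophagy, pH control and collagen modification.

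Differences were taken as log2 of the mean CPM plus 1 in one group minus that in the other, so 0 means no difference. The intervals in parentheses are exact 95% intervals of the pooled reads and cover counting error only. Abundant genes therefore have narrow intervals, and a difference of a few percent can leave 0 outside. TMM scaling raised the differences of members from the control by up to 0.040 with GPNA and 0.047 with BenSer, so small differences depend on the scaling. Each library pools many cells, so less RNA per cell and fewer cells making it cannot be told apart. CPM is also relative to the library total, so absolute amounts of RNA were not measured.

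With BenSer, 2 of the 33 genes were at least 1.5-fold above the control and 0 were at least 1.5-fold below. These were ADM and NDRG1, both hypoxia-regulated. Over the 18976 genes compared, 1.96% passed this threshold upwards and 1.58% downwards. With a lower threshold of 0.32 on the log2 scale, 6 members were higher (7.36% of all genes) and 3 lower (10.3% of all genes). With GPNA, 0 members passed 1.5-fold in either direction, against 0.340% of the 18828 genes compared for higher and 0.0637% for lower. NDRG1 alone passed the lower threshold upwards (2.86% of all genes) and EGLN3 alone downwards (2.74% of all genes). The median member differed from the control by -0.031 with GPNA and -0.017 with BenSer, and the median of all genes by -0.028 in both comparisons. With TMM scaling the members' medians were 0.0077 and 0.030, so their sign carries no direction.

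**Figure D1:**
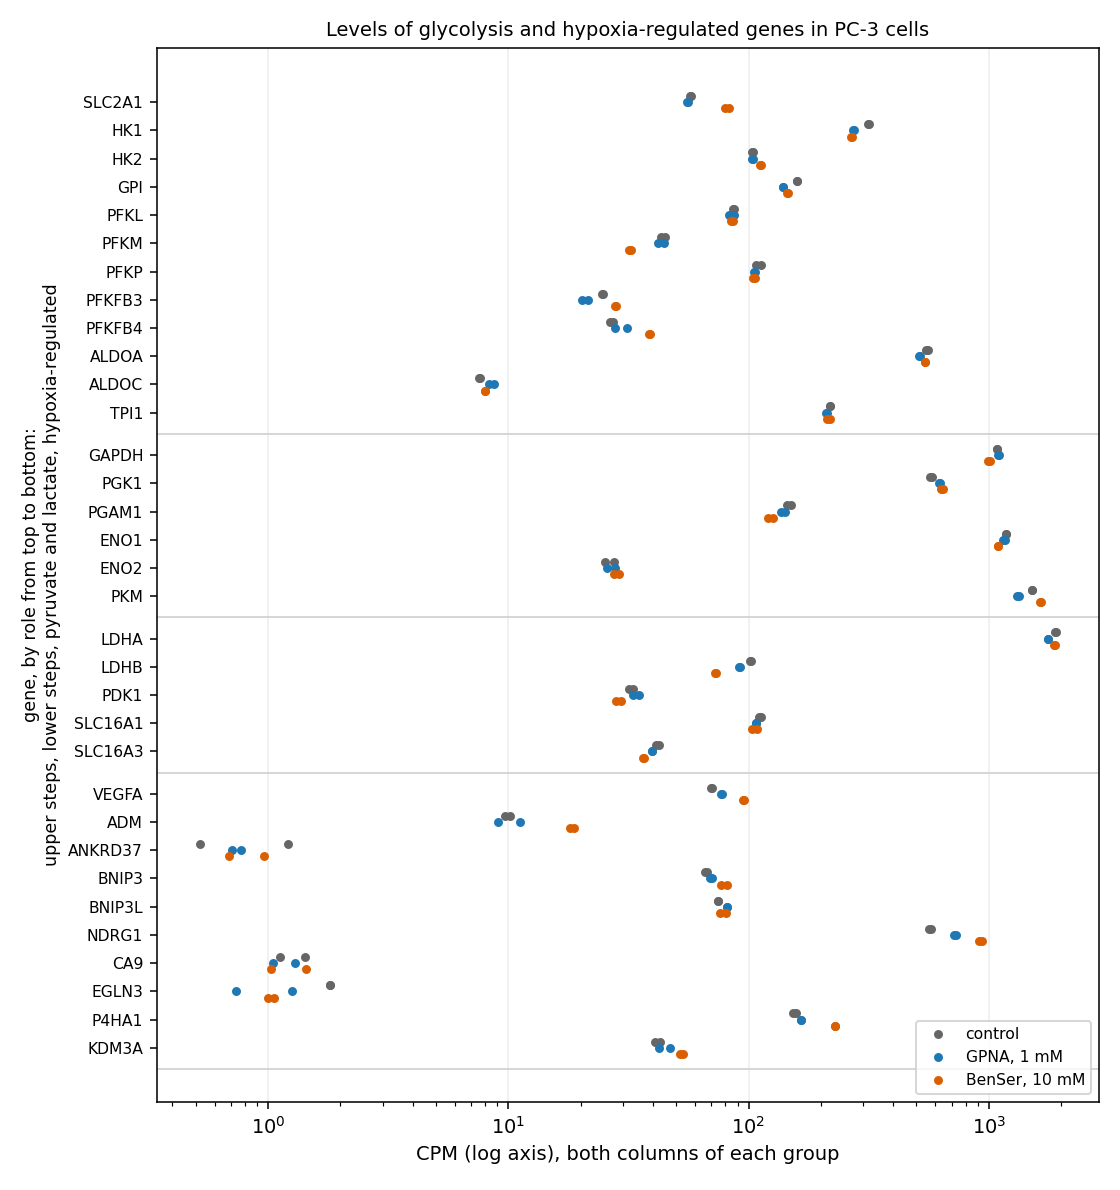
Level of each of the 33 genes in CPM on a log axis, with a point for each column of the control, GPNA (1 mM) and BenSer (10 mM) groups, ordered by role. Points of a group nearly coincide for abundant genes and spread apart for ANKRD37, CA9 and EGLN3, which stood between 0.520 and 1.82 CPM.

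Among the genes of glucose uptake and the upper steps, BenSer was accompanied by higher SLC2A1 and PFKFB4 and lower PFKM, and the remaining 9 genes stayed within the lower threshold. SLC2A1 encodes GLUT1, the main basal glucose transporter (chr1:43391024-43424564, minus strand, GRCh37). Its level was 57.1 and 57.4 CPM in the control columns, 56.1 and 55.4 CPM with GPNA, and 83.3 and 80.0 CPM with BenSer. Both BenSer columns lay above all of the others, while control and GPNA were close to each other. The log2 difference from the control was 0.50 (0.44 to 0.57) with BenSer, 1.42-fold, and -0.038 (-0.11 to 0.038) with GPNA.

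PFKFB4 and PFKFB3 encode bifunctional enzymes that set the level of fructose 2,6-bisphosphate, the activator of phosphofructokinase. PFKFB4 (chr3:48555117-48599448, minus strand) was at 27.3 and 26.5 CPM in untreated cells, 27.8 and 31.2 CPM with GPNA, and 38.8 and 38.5 CPM with BenSer. The difference was 0.51 (0.41 to 0.60) with BenSer and 0.13 (0.022 to 0.23) with GPNA, where the columns differed from each other by more than read sampling. PFKFB3 was at 24.9 and 24.5 CPM in untreated cells, 21.4 and 20.2 CPM with GPNA and 28.2 and 27.8 CPM with BenSer. It was thus below the control with GPNA (-0.24, -0.36 to -0.12) and above it with BenSer (0.17, 0.069 to 0.28), and the columns of the groups did not overlap.

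The phosphofructokinase genes differed from the control by unlike amounts with BenSer. PFKM, the muscle-type subunit (chr12:48498922-48540187, plus strand), was at 44.8 and 43.4 CPM in untreated cells, 42.0 and 44.3 CPM with GPNA and 32.4 and 31.8 CPM with BenSer. The BenSer columns were the lowest, with a difference of -0.45 (-0.53 to -0.36), or 0.734-fold, whereas the GPNA and control columns overlapped. PFKL differed by -0.022 with GPNA and -0.015 with BenSer, and PFKP by -0.053 and -0.061. The PFKM locus overlaps SENP1 on the opposite strand, and SENP1 was at 23.0, 22.2 and 21.7 CPM in control, GPNA and BenSer. Whether SENP1 reads entered the PFKM count was not tested.

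Hexokinases trap glucose in the cell by phosphorylation. HK1 was lower with both compounds, at 317 and 315 CPM in untreated cells, 274 and 272 CPM with GPNA and 266 and 270.1 CPM with BenSer. Its difference was -0.21 (-0.25 to -0.18) with GPNA and -0.24 (-0.27 to -0.21) with BenSer. HK2, the isozyme known for its induction in tumours, was at 103 and 104 CPM in untreated cells, 104 and 103 CPM with GPNA and 113 and 112 CPM with BenSer, with a difference of 0.0025 (-0.054 to 0.059) and 0.12 (0.072 to 0.18), respectively. GPI, which isomerizes glucose 6-phosphate, was below the control with GPNA (-0.19) and BenSer (-0.13). The aldolases ALDOA and ALDOC and the triose isomerase TPI1 ranged from -0.10 to 0.15 with GPNA and from -0.025 to 0.065 with BenSer. The sign of ALDOA with BenSer (-0.025) turned with TMM or DESeq2 size factors.

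In the lower steps, from GAPDH to pyruvate kinase, 0 of 6 genes passed the lower threshold in either comparison with the control. Over all genes, 2.86% passed it upwards and 2.74% downwards with GPNA, and 7.36% and 10.3% with BenSer. PKM, which makes pyruvate, was at 1516 and 1512 CPM in untreated cells, 1309.7 and 1341 CPM with GPNA and 1633 and 1644 CPM with BenSer. It lay below the control with GPNA (-0.19, -0.21 to -0.18) and above it with BenSer (0.11, 0.10 to 0.13). In CPM, PKM and PFKFB3 were the 2 members whose intervals lay on opposite sides of 0 with the compounds. This count depended on the scaling. With TMM, GAPDH was at 0.056 with GPNA and -0.069 with BenSer, and LDHA at -0.064 and 0.030. The GPNA columns of PKM differed from each other by more than read sampling. The tables count the gene as a whole, so its M1 and M2 isoforms cannot be separated. PGK1, the first ATP-yielding enzyme, was at 578 and 571 CPM in untreated cells, 623 and 625 CPM with GPNA and 642 and 635 CPM with BenSer. It was higher with both compounds, by 0.12 (0.096 to 0.14) and 0.15 (0.13 to 0.17).

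GAPDH and ENO1 are often used as reference genes. GAPDH was at 1085 and 1084 CPM in untreated cells, 1098 and 1096 CPM with GPNA and 1009 and 992 CPM with BenSer, so that both BenSer columns lay below the others (-0.12, -0.13 to -0.099, or -0.069 with TMM scaling). ENO1 was likewise lower with BenSer (-0.10, -0.12 to -0.088, or -0.057 with TMM scaling), and its difference of -0.026 with GPNA changed sign under other scalings. PGAM1, the phosphoglycerate mutase, was at 150.0 and 144 CPM in untreated cells, 137 and 142 CPM with GPNA and 121 and 127 CPM with BenSer, a difference of -0.24 (-0.29 to -0.20) with BenSer. The intervals of ENO2, the neuronal enolase, included 0 in both comparisons. Summed over 17 enzymes from hexokinase to lactate dehydrogenase, the level was 8117 CPM in the control, 7706 CPM with GPNA and 7986 CPM with BenSer.

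All 5 genes of pyruvate and lactate handling had an interval below 0 with BenSer, compared with 25.8% of all genes, and 3 of 5 did with GPNA, compared with 20.1%. This count depended on the scaling, since with TMM or DESeq2 size factors 3 of the 5 lay below 0 and 1 above with BenSer, and 2 below and 1 above with GPNA. The median difference was -0.17 with BenSer and -0.079 with GPNA. LDHB, the lactate dehydrogenase subunit that favours conversion of lactate to pyruvate (chr12:21788276-21910791, minus strand), had the largest difference of them. It was at 101 and 102 CPM in untreated cells, 91.9 and 91.5 CPM with GPNA and 73.4 and 72.4 CPM with BenSer. The groups did not overlap and were ordered control, GPNA, BenSer, with differences of -0.14 (-0.20 to -0.086) and -0.47 (-0.53 to -0.41), the latter 0.722-fold.

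LDHA, the subunit that favours lactate formation, was at 1907 and 1888 CPM in untreated cells, 1766 and 1764 CPM with GPNA and 1877 and 1873 CPM with BenSer. Its difference was -0.10 (-0.12 to -0.091) with GPNA and -0.017 (-0.030 to -0.0045) with BenSer, which turned to 0.030 with TMM scaling and 0.031 with DESeq2 size factors. PDK1, a kinase that switches off pyruvate dehydrogenase, averaged 32.5 CPM in the control, 33.9 CPM with GPNA and 28.7 CPM with BenSer. It was therefore lower with BenSer (-0.17, -0.27 to -0.074), whereas its GPNA interval included 0. SLC16A3 (MCT4), a lactate exporter, was at 42.6 and 41.1 CPM in untreated cells, 39.6 and 39.5 CPM with GPNA and 36.7 and 36.3 CPM with BenSer (-0.079 and -0.19). SLC16A1 (MCT1) differed by -0.062 and -0.081. SLC16A3 overlaps CSNK1D on the opposite strand, which was at 45.9 CPM without and 56.9 CPM with BenSer, and its part in the SLC16A3 count was not tested.

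Of the 10 hypoxia-regulated genes outside glycolysis, 7 stood higher with BenSer, and the median difference of the 10 was 0.28. The intervals were above 0 for these 7 and below 0 for EGLN3 alone, compared with 18.2% and 25.8% of all genes. With GPNA the median was 0.077, with 5 intervals above 0 (9.78% of all genes) and EGLN3 below. Among these 5, the columns of KDM3A overlapped the control. ADM encodes adrenomedullin, a vasodilator peptide (chr11:10326620-10328944, plus strand). Its level was 10.2 and 9.66 CPM in untreated cells, 9.11 and 11.2 CPM with GPNA and 18.1 and 18.8 CPM with BenSer, from 460, 521 and 1185 pooled reads, respectively. Both BenSer columns were far above the rest, and the GPNA columns lay on either side of the control. The difference was 0.83 (0.69 to 0.98) with BenSer, or 1.78-fold, and 0.031 (-0.14 to 0.20) with GPNA.

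NDRG1, a stress-responsive gene induced by low oxygen and linked to differentiation (chr8:134249418-134314265, minus strand), was higher with both compounds. It was at 572 and 562 CPM in untreated cells, 717 and 729 CPM with GPNA and 913 and 933 CPM with BenSer. The groups did not overlap and were ordered control, GPNA, BenSer. The difference was 0.35 (0.33 to 0.37) with GPNA, or 1.27-fold, and 0.70 (0.68 to 0.72) with BenSer, or 1.63-fold.

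P4HA1, a subunit of the prolyl hydroxylase that modifies collagen (chr10:74766975-74856732, minus strand), stood just under the 1.5-fold threshold with BenSer. Its level was 158 and 153 CPM in untreated cells, 166 and 165 CPM with GPNA and 229 and 228 CPM with BenSer. The difference was 0.55 (0.51 to 0.59), and it became 0.60, past the threshold, when libraries were scaled by TMM or by DESeq2 size factors. The nearest gene inside the threshold was NDRG1.

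VEGFA, the main growth factor for blood vessels (chr6:43737921-43754224, plus strand), was at 69.8 and 70.4 CPM in untreated cells, 77.1 and 77.5 CPM with GPNA and 95.1 and 95.7 CPM with BenSer. Its groups did not overlap, with a difference of 0.14 (0.072 to 0.21) and 0.44 (0.38 to 0.50). KDM3A, a histone H3 lysine demethylase, was at 42.8 and 41.0 CPM in untreated cells, 47.1 and 42.3 CPM with GPNA and 53.2 and 52.1 CPM with BenSer, a difference of 0.32 (0.24 to 0.40) with BenSer that stood just short of the lower threshold. With GPNA the KDM3A difference was 0.089 (0.0034 to 0.18), and it fell to 0.011 without GPNA column 1. Its GPNA columns overlapped the control and differed from each other by more than read sampling. The mitophagy receptors BNIP3 and BNIP3L differed by 0.24 (0.18 to 0.31) and 0.076 with BenSer and by 0.065 (-0.0038 to 0.13) and 0.12 with GPNA, so that BNIP3 had the larger difference of the pair with BenSer and BNIP3L with GPNA.

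The remaining 3 genes were near the limit of these libraries. EGLN3 (PHD3) is a prolyl hydroxylase that marks HIF for degradation and is itself a HIF target. It was at 1.81 and 1.82 CPM in untreated cells, 0.736 and 1.26 CPM with GPNA and 1.06 and 1.00 CPM with BenSer, from 84, 51 and 66 pooled reads, respectively. Both treated groups lay below the control, by -0.49 (-0.78 to -0.20) with GPNA and -0.47 (-0.74 to -0.19) with BenSer, opposite to NDRG1, P4HA1 and VEGFA with both compounds and to ADM with BenSer. The size of these values depended on the pseudocount, and was -0.80 and -0.76, past 1.5-fold, with 0.1 CPM and -0.18 in both comparisons with 5 CPM. With GPNA it was -0.70 without column 2 and -0.32 without column 1, although the columns agreed within read sampling. CA9, the tumour-associated carbonic anhydrase that controls pH and one of the best known HIF-1 targets, was at 1.12 and 1.43 CPM in untreated cells, 1.05 and 1.30 CPM with GPNA and 1.03 and 1.44 CPM with BenSer. The columns of the 3 groups overlapped, and the intervals of -0.36 to 0.23 with GPNA and -0.31 to 0.25 with BenSer leave no difference detectable at this depth. ANKRD37 was between 0.520 and 1.21 CPM in all columns, and its intervals also included 0. CA9 and ANKRD37 overlap ARHGEF39 and UFSP2 on the opposite strand, both of which were more abundant (3.37 and 7.95 CPM in the control), and whether their reads entered these counts was not tested.

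**Figure D2:**
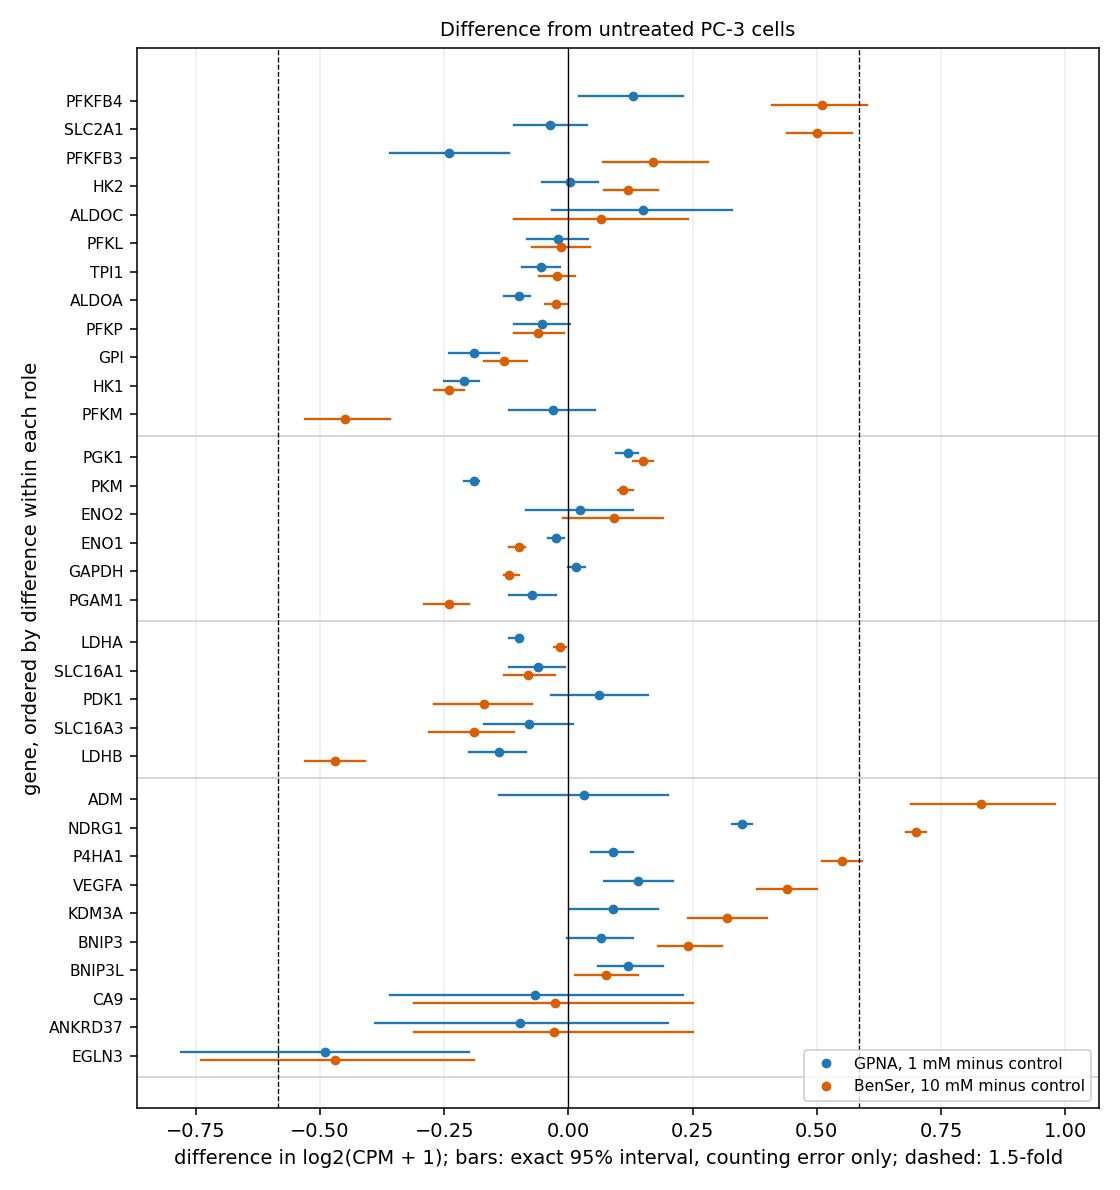
Difference from the control in log2 of CPM plus 1 for each gene (points) with its exact 95% interval for counting error (bars), grouped by role, for GPNA and BenSer. Only ADM at 0.83 and NDRG1 at 0.70 lie beyond the dashed 1.5-fold lines, and EGLN3 is the single hypoxia-regulated gene with both intervals below 0.

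The regions just upstream of the start sites were read for the HIF core letters, since several hypoxia-regulated genes were higher together with BenSer. RefSeq windows (GRCh38.p14) were matched for 29 of the 33 genes, not for SLC16A1, VEGFA, BNIP3L and NDRG1. Within 250 bases upstream, on either strand, ACGTG was found for 18 of 29 members (62.1%), and for 28.2% of the 10975 listed genes with a window. Many members are known HIF targets and were chosen as such, and members also had more windows per gene. By window, the shares were 37.5% of 56 and 21.7% of 16048. GCGTG was found for 15 of 29 members (51.7%), and for 51.7% of all genes, or by window for 32.1% and 42.0%. The motifs differ in their first letter, and matches on opposite strands can overlap, as in CACGTG. Of the 4 matched genes past the lower threshold with BenSer (SLC2A1, PFKFB4, ADM and P4HA1), 1 had ACGTG and 3 had either core. Of the other 25 matched members, 17 had ACGTG and 21 had either. SLC2A1 had neither. The windows below are given 5′ to 3′ on the strand of the gene, with 1 match per window in capitals. They cover the 3 matched genes past the lower threshold with BenSer that had either core. PGK1 and LDHA are given beside them as genes that hold ACGTG and did not pass that threshold. PGK1 was also higher with BenSer (0.15, 0.13 to 0.17), and LDHA differed by -0.017, or 0.030 with TMM scaling. CACGT is ACGTG read on the other strand. The PGK1 and LDHA windows hold further matches, left in lower case.

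ADM (chr11:10304952-10304996, plus strand, match at position -101 from the start site): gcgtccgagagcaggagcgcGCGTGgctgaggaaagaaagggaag

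PFKFB4 (chr3:48556945-48556989, minus strand, match at -166): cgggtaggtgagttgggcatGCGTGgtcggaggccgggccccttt

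P4HA1 (chr10:73096928-73096972, minus strand, match at -86): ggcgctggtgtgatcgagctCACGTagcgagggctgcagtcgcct

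PGK1 (chrX:78104045-78104089, plus strand, match at -183): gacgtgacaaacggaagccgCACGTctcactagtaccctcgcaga

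LDHA (chr11:18394457-18394501, plus strand, match at -86): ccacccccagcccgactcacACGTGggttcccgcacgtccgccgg

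A match of these letters is a description of the sequence and not a site of binding, which was not measured in these libraries.

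Within families of isozymes, the shares of reads show where the balance differed between groups, and shares per transcript length show which member dominated. HK2 held 24.6% (24.0% to 25.2%) of hexokinase reads in the control, 27.5% (26.9% to 28.2%) with GPNA and 29.6% (29.0% to 30.2%) with BenSer. Corrected for transcript length, HK2 was 17.3%, 19.6% and 21.2% of the pair, so HK1 dominated throughout. PFKM held 18.4% of phosphofructokinase reads in both the control and the GPNA group, and 14.4% (13.8% to 15.0%) with BenSer. PFKP was the largest of the 3 per length, at 48.7%, 48.2% and 50.1%.

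PFKFB4 made up 52.1% (50.1% to 54.1%) of PFKFB3 and PFKFB4 reads in the control, 58.6% (56.7% to 60.5%) with GPNA and 58.0% (56.5% to 59.4%) with BenSer. The shares with the compounds were alike although the levels differed, with PFKFB3 lower with GPNA and both genes higher with BenSer. Leaving out 1 GPNA column moved that share to between 56.5% and 60.7%. LDHB held 5.07% (4.93% to 5.22%) of lactate dehydrogenase reads in the control, 4.94% (4.80% to 5.08%) with GPNA and 3.74% (3.64% to 3.85%) with BenSer, or 8.42%, 8.20% and 6.27% per length. ALDOC and ENO2 were minor forms, at 1.36% to 1.64% of aldolase reads and 2.20% to 2.52% of enolase reads. SLC16A3 held 25.6% to 27.2% of the reads of the lactate transporters, and 33.2% to 35.1% per length. BNIP3L held 49.9% to 53.8% of BNIP3 and BNIP3L reads, but 30.8% to 34.2% per length.

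**Figure D3:**
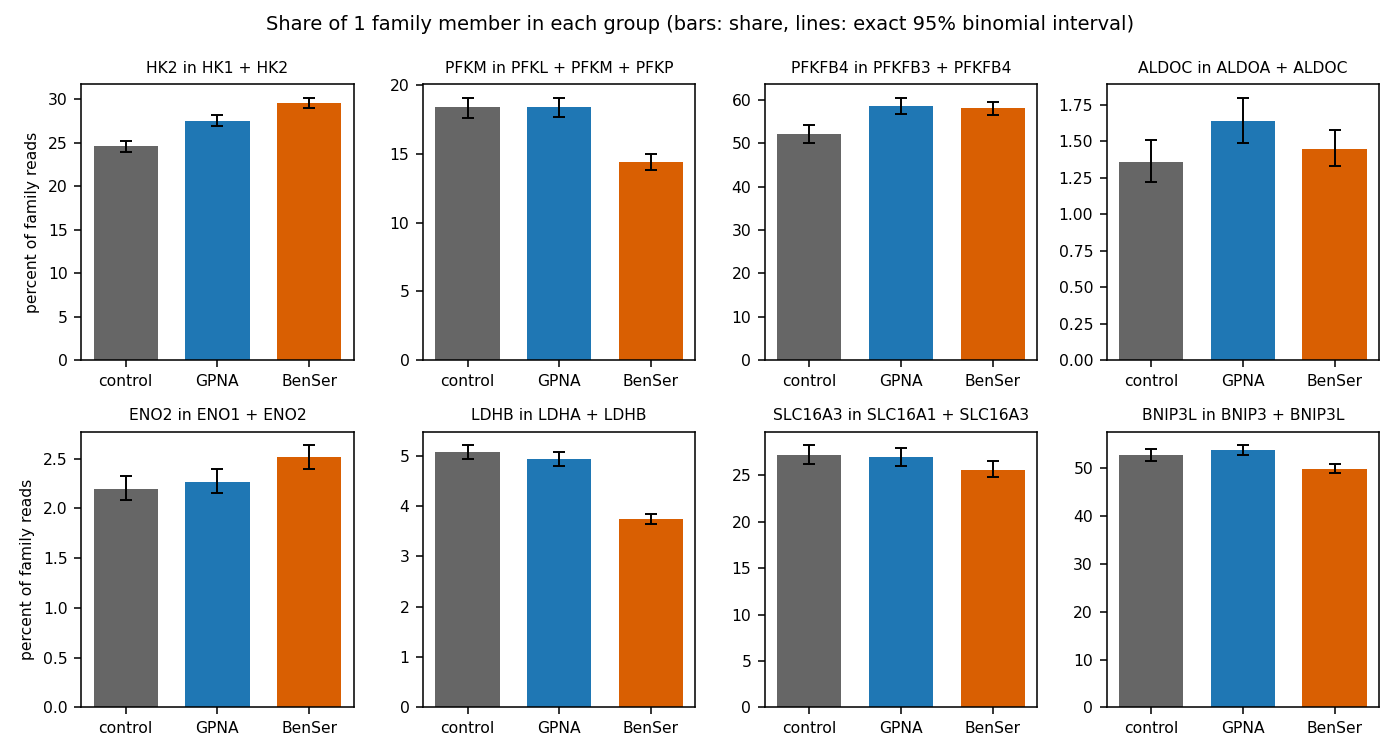
Share of the reads of a gene family held by 1 member (bars, percent, with exact 95% binomial intervals) in the control, GPNA and BenSer groups, each panel on its own scale from 0. PFKM and LDHB shares are lowest with BenSer, at 14.4% and 3.74%, and the HK2 share is lowest in the control, at 24.6%.

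Per kilobase of the canonical transcript, LDHA (847 CPM per kb) and GAPDH (844 CPM per kb) were the most abundant members in the control, followed by ENO1 (659) and PKM (657), again in CPM per kb. Within each pair the values were nearly equal. ALDOA followed at 336 CPM per kb and NDRG1 at 187 CPM per kb, which with BenSer reached 305 CPM per kb and came near ALDOA at 331 CPM per kb. The lowest were EGLN3 at 0.670 and CA9 at 0.824 CPM per kb. Rows named as pseudogenes of TPI1, GAPDH, PGAM1, LDHA and BNIP3 summed to at most 2.15 CPM per gene and were small beside the genes themselves.

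Doses differed between the compounds, 1 mM for GPNA and 10 mM for BenSer, so the direct comparison contrasts those doses and not the compounds at equal strength. BenSer stood above GPNA by at least 1.5-fold for ADM alone (1.05% of the 19056 genes compared), at 0.80 (0.66 to 0.94), or 1.74-fold, and 0 members were 1.5-fold lower (0.813%). ADM was 0.95 above when GPNA column 2 was left out. At the lower threshold, 6 members were higher (6.86% of all genes) and 2 lower (7.08%). The higher genes included SLC2A1 (0.54, 0.48 to 0.61), P4HA1 (0.46, 0.43 to 0.50), PFKFB3 (0.41, 0.31 to 0.52) and PFKFB4 (0.38, 0.29 to 0.47), and the lower genes were PFKM (-0.42, -0.50 to -0.33) and LDHB (-0.33, -0.38 to -0.27). PKM was 1.24-fold higher. Intervals lay above 0 for 15 members and below 0 for 7 (21.2% and 20.7% of all genes). Those of HK1, PFKL, PFKP, CA9, EGLN3 and ANKRD37 were among the intervals that included 0. For EGLN3 it ran from -0.25 to 0.30, so differences of that size remain possible.

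Genes of the same pathways that are not members were read as well. Of 26 other hypoxia-regulated genes, 5 were at least 1.5-fold higher with BenSer, and the median difference was 0.28, as for the 10 members. Over all genes 1.96% passed 1.5-fold upwards. Intervals were above 0 for 19 of 26 and below 0 for 2, against 18.2% and 25.8% of all genes. ANGPTL4, a secreted inhibitor of lipoprotein lipase, was at 3.01 and 3.03 CPM in untreated cells, 3.02 and 3.06 CPM with GPNA and 6.65 and 7.67 CPM with BenSer (1.02, 0.80 to 1.24). STC2, a secreted glycoprotein also known from endoplasmic reticulum stress, was at 87.9 and 84.0 CPM in the control and 168 and 165 CPM with BenSer (0.95, 0.89 to 1.00). DDIT4 (REDD1), an inhibitor of mTORC1, differed by 0.77, and BHLHE41 and P4HA2 by 0.61 each.

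With GPNA, 0 of the 26 passed 1.5-fold (0.340% of all genes for higher and 0.0637% for lower), and the median was 0.070. The nearest was IGFBP3, which binds insulin-like growth factors, with 96.3 and 88.2 CPM in untreated cells, 60.4 and 62.8 CPM with GPNA and 125 and 124 CPM with BenSer. It was thus the lowest with GPNA (-0.58, -0.64 to -0.51) and the highest with BenSer (0.42, 0.37 to 0.48).

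Of the HIF pathway itself, 9 of 10 genes were compared and 0 passed 1.5-fold. Over all genes, 1.96% passed it upwards and 1.58% downwards with BenSer, and 0.340% and 0.0637% with GPNA. Intervals were above 0 for 5 and below 0 for 2 with BenSer (18.2% and 25.8% of all genes). With GPNA they were above 0 for 1 and below 0 for 4 (9.78% and 20.1%). HIF1A, the oxygen-regulated subunit of HIF-1, was at 564 and 568 CPM in untreated cells, 588 and 571 CPM with GPNA and 518 and 510.0 CPM with BenSer. Its transcript was thus lower with BenSer (-0.14, -0.16 to -0.12), while EPAS1 (HIF-2α) was higher (0.15, 0.085 to 0.21). EPAS1 was below the control with GPNA (-0.19, -0.26 to -0.12). The hydroxylase EGLN1, itself a HIF target, and VHL, which recruits hydroxylated HIF for degradation, were higher with BenSer, by 0.22 and 0.26. The related hydroxylase EGLN2 was lower with both compounds (-0.33 with GPNA and -0.34, -0.59 to -0.091, with BenSer). HIF protein was not measured in these libraries.

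Entry of pyruvate into the mitochondrion is the alternative to lactate. With BenSer, 5 of 13 genes were lower past the lower threshold and 1 was higher, against 10.3% and 7.36% of all genes. The subunits of pyruvate dehydrogenase PDHA1 (-0.52, -0.58 to -0.45), DLAT (-0.45, -0.52 to -0.38), DLD (-0.38, -0.45 to -0.31) and PDHB (-0.37, -0.46 to -0.28) were lower, as was SLC16A7 (MCT2), a high-affinity monocarboxylate transporter (-0.62, -0.82 to -0.43). PDHX, the remaining component of the complex on the list, was at 0.051 (-0.056 to 0.16), and the intervals of the mitochondrial pyruvate carriers MPC1 (0.15) and MPC2 (-0.100) included 0. PDK4, another pyruvate dehydrogenase kinase, was higher at a low level, from 1.94 and 2.21 CPM to 3.20 and 4.04 CPM (0.59, 0.34 to 0.84), which is opposite to PDK1. With GPNA, 0 of the 13 passed the lower threshold, against 2.86% of all genes for higher and 2.74% for lower.

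Of 21 other glycolysis genes on the list, 11 could be compared for GPNA and 10 for BenSer, and 0 passed 1.5-fold. Over all genes, 0.340% passed it upwards and 0.0637% downwards with GPNA, and 1.96% and 1.58% with BenSer. At such shares a list this short would hold few genes past the threshold. TIGAR, listed as C12orf5, a phosphatase that lowers fructose 2,6-bisphosphate, was lower with both compounds (-0.36 and -0.39). It alone of this list passed the lower threshold, downwards in each comparison with the control. Of 4 gluconeogenesis genes, PCK2, the mitochondrial phosphoenolpyruvate carboxykinase and a known target of the amino acid stress factor ATF4, was at 8.31 and 9.19 CPM in untreated cells, 14.3 and 13.7 CPM with GPNA and 12.3 and 12.8 CPM with BenSer. It was the single gene of all these lists past 1.5-fold with GPNA (0.62, 0.46 to 0.79), and it differed by 0.47 with BenSer.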

How the data were processed

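Total RNA of PC-3 cells was sequenced from stranded, paired-end libraries. The submitters' processing notes name TopHat2, Bowtie2, HTSeq (0.6.2p2) and DESeq, and hg19/GRCh37.p13. The strand setting of the counting is not given in the sources used here. The deposited tables head their value columns as counts, but the values that the authors deposited are CPM. All of them (100%) came out as whole reads within a tolerance of 0.01 once multiplied back, so reads were recovered. Of 16 value column entries, 8 (6 of them distinct) matched no labelled sample by name and were not used. The authors' own fold changes, p-values and false discovery rates, also in the tables, were not used.

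Mean CPM plus a pseudocount of 1 was compared on the log2 scale wherever either group averaged 5 reads or more. Intervals are Clopper-Pearson at 95% on the pooled reads, without regard to PCR duplicates. The chi-square of the columns used genes with 20 reads or more, and left an excess coefficient of variation of 0.965% to 1.20%.

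As alternatives, the pseudocount, filter, scaling and threshold were varied, and tests were run with edgeR 4.0.16, limma 3.58.1 and DESeq2 1.42.0 (R 4.3.3) over all genes with Benjamini-Hochberg adjustment. These enter the columns as 2 samples and so compare libraries, not treatments. On the recovered reads, edgeR called 1300 genes higher and 1553 lower with GPNA, and 3472 higher and 3331 lower with BenSer, at an adjusted p under 0.05. Python 3.11.15 (scipy 1.17.1) was used elsewhere, and scripts were tested on simulated data.

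Members and further lists were chosen with earlier results of these data known. Column values are given for members past 1.5-fold and for those with the largest differences of each role, and genes of further lists are named where past 1.5-fold, up to 6 per list. The others were named after their values were seen. Positions and transcript lengths come from GENCODE lifted to GRCh37. Some genes of the further lists and markers are not reported here.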

Additional observations from a re-analysis of the deposited data

How the results depend on the processing

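Of 1080 single differences, 1015 stayed within the counting interval as reported, 58 moved outside it and 7 reversed. The reversed differences were all under 0.032 in size: with GPNA, ENO1 became 0.014 (TMM), 0.012 (DESeq2 size factors) and 0.004 (scaling to the listed genes), and with BenSer, ALDOA became 0.022 (TMM) and 0.023 (DESeq2 size factors) and LDHA 0.030 and 0.031. A further 36 differences whose interval included 0 changed sign. With a pseudocount of 0.1 CPM, 1 member was at least 1.5-fold lower with GPNA and 1 with BenSer, EGLN3 in both. With single columns left out, the number of such members with GPNA ranged from 0 to 1. TMM scaling and DESeq2 size factors gave 11 intervals above 0 and 8 below with GPNA instead of 7 and 12, and 15 and 10 with BenSer instead of 13 and 14, and shifted the median of all genes by at most 0.032. In CPM, intervals lay above 0 for 9.78% and below 0 for 20.1% of all genes with GPNA. With BenSer these shares were 18.2% and 25.8%. The lower threshold of 0.32 (log2) gave 1 higher and 1 lower member with GPNA, 6 and 3 with BenSer, and 6 and 2 for BenSer against GPNA, and a threshold of 2-fold gave 0 higher members with BenSer against either group. Called at an adjusted p under 0.05 with the columns as samples, edgeR with the replicate block found 6 higher and 7 lower members with GPNA (5.33% and 6.42% of all genes) and 15 higher and 9 lower with BenSer (16.7% and 15.9%). DESeq2 found 6 and 5 with GPNA (4.42% and 5.30% of the genes with an adjusted p, which 8761 lacked) and 13 and 6 with BenSer (15.0% and 14.4%, with 5519 lacking one). By limma, 0 members were higher and 0 lower with GPNA (0.0106% and 0% of all genes; 3 higher and 6 lower at an unadjusted p under 0.05), 8 were higher and 5 lower with BenSer (9.68% and 14.0%), and 8 were higher and 2 lower in BenSer against GPNA (9.57% and 9.59%). The column numbers share only a number, so the replicate block is no pairing by design. Genes near 1 CPM, namely EGLN3, CA9 and ANKRD37, are limited by depth.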
